A study of Arabidopsis thaliana with 36 samples.

Results

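The genes described here are the protein-coding genes of the plastid chromosome of Arabidopsis thaliana, measured in roots. They were taken from a block of consecutively numbered probe sets, 244932 to 245060, on the Affymetrix array, and kept where the platform annotation gives a single symbol of a plastid gene family: photosystem I (psa), photosystem II (psb), cytochrome b6f complex (pet), NDH complex (ndh), ATP synthase (atp), Rubisco (rbc), RNA polymerase (rpo), ribosomal proteins (rps, rpl), and ycf, clp, acc, ccs and mat. The rule found 68 probe sets, one gene each, of 22746 probe sets on the array. All 68 matched a plastid gene in RefSeq, which lists 78 plastid protein-coding symbols. Photosynthesis genes made up 43 of them, ribosome and polymerase genes 19, and the remaining 6 were accD, ccsA, clpP, matK, ycf3 and ycf4. A further 8 probe sets of the block, for genes such as ndhB, rps7, rps12 and rpl2, are listed under several genes and were not used.

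The study followed roots of Arabidopsis, accession Columbia, on plates that let one plant root into separate compartments. In all groups the plants were first grown with 0.5 mM ammonium succinate, 0.1 mM KNO3 and 3 mM sucrose, and then, with a pair of main roots each, on divided medium with 0.5 mM ammonium succinate. At an age of 12 to 14 days they were moved to segmented plates with 0.3 mM sucrose. The groups were Sp.NO3 (the 5 mM KNO3 side of a split plate), Sp.KCl (the 5 mM KCl side of a split plate), C.NO3 (5 mM KNO3 on both sides) and C.KCl (5 mM KCl on both sides), each sampled after 2 hours, after 8 hours and after 2 days. Each of the 12 groups has 3 arrays, labelled as repeats, and where these shared plants or plates is not stated, so p-values measure the spread between these arrays only. For all 18 KCl arrays the sample titles and the listed treatments disagree about which are split and which are uniform. The titles were followed, and calls that turn or are lost with the reverse reading, in which C.KCl and Sp.KCl exchange their arrays, are marked.

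Plastid chromosomes carry genes for the photosynthetic complexes and for part of the machinery that expresses them. Textbook accounts give plants a pair of plastid transcription systems: a bacterial-type RNA polymerase whose core subunits (rpoA, rpoB, rpoC1, rpoC2) are plastid genes, which transcribes most photosynthesis genes, and a phage-type polymerase encoded in the nucleus, which transcribes rpoB, rpoC1, rpoC2, accD and a few others. Most plastid genes stand in clusters that are transcribed together and then cut, spliced and edited by nucleus-encoded proteins. Roots hold leucoplasts and amyloplasts, which make starch, fatty acids and amino acids and assimilate nitrite and ammonium, and which do not usually build thylakoids.

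Signals are linear MAS5 values. Differences are in log2(signal + 16) units, each with the fit's standard error (SE). A fold change on that scale understates the change of dim probe sets. Array medians lay between 194 and 222, and log2 values of arrays of one group correlated at 0.9718 to 0.9865 across probe sets. A ratio of 3′ to 5′ control probe sets for actin and GAPDH, a measure of RNA integrity and labelling, averaged a log2 of 1.56 ± 0.26 at 2 hours, 1.43 ± 0.24 at 8 hours and 1.92 ± 0.11 at 2 days (SD, n = 12 each). Root markers EXPA7 and EXPA18, expansins of root hair cells, were the 2 of 11 listed root genes with a probe set of their own, and gave 793 to 1802 and 577 to 1648 in every array. Of 47 listed nuclear genes of photosynthesis and green tissue, 7 had such a probe set, and RCA, the Rubisco activase, lay between 189 and 691. By median signal the brightest of the 7 was ATPC1, at 297 to 878. The dimmest were PSAE1, at 11.3 to 175, and LHCB4.2, at 14.5 to 192. In bulk roots, fewer cells or plastids of a kind and less RNA in each cannot be told apart. The labels name an in vitro transcription labelling kit without its primer. Plastid messages lack the stable poly(A) tails of nuclear messages, and a change in a message and a change in how well it is primed cannot be told apart here.

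Of the 68 genes, 58 passed the filter on dim probe sets (35 photosynthesis, 17 ribosome and polymerase, 6 other) and were tested among 15922 probe sets. The 10 below it were ndhF, ndhG, ndhH, ndhJ, ndhK, petD, psbN, atpI, rpoB and rps14. Among the brightest probe sets within their families were psbM (a small photosystem II subunit, mean signal 6878), atpB (the beta subunit of ATP synthase, 6038), petB (cytochrome b6, 5349), rps3 (4108), rpoA (3296), rpl32 (2705), ndhI (2709), psaB (a reaction centre protein of photosystem I, 1940) and matK (an intron maturase, 5559). The probe set of psbA, the D1 protein that is among the most abundant messages of leaf chloroplasts, averaged 126, and that of rbcL, the large subunit of Rubisco, 323. Signals of different probe sets are not on a common scale, so these levels have no order between genes. The highest of the 12 group means fell at 2 hours for 39 of the 58 tested genes, at 8 hours for 14 and at 2 days for 5. Over all probe sets tested these shares were 32.0%, 27.3% and 40.6%. C.KCl at 2 hours alone was the highest group for 27 genes (46.6%), against 11.4% of all probe sets, and with the reverse reading these arrays would be Sp.KCl. The array's probe set for 25S ribosomal RNA, on the log2(signal + 16) scale, gave 8.66, 9.29 and 8.83 in C.KCl at 2 hours. It averaged 10.91 ± 0.81 in Sp.NO3, 10.29 ± 2.06 in Sp.KCl and 10.22 ± 1.23 in C.NO3 at that time (SD, n = 3 each). The 3 C.KCl arrays lay below all 6 nitrate arrays and overlapped with Sp.KCl, and replicate 3 of the other groups stood at 11.61 to 12.67. Its part in the results at 2 hours was not tested.

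**Figure D1:**
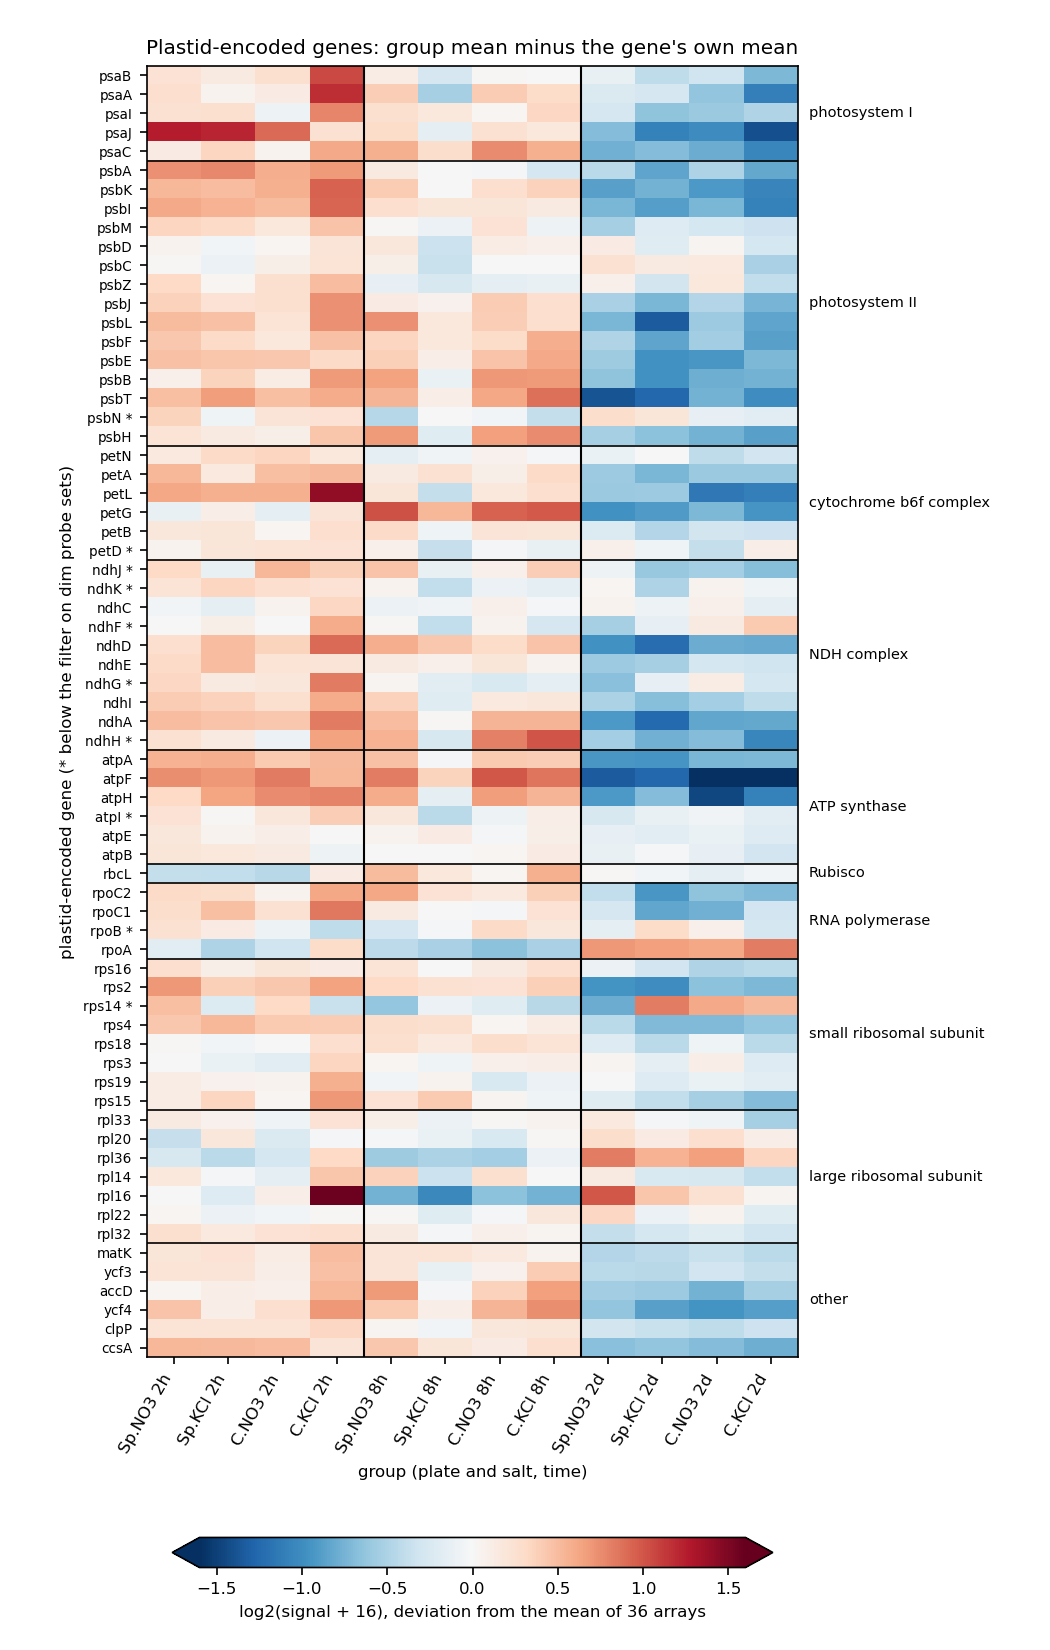
Heat map of the 68 plastid-encoded genes (rows, grouped by complex) in the 12 groups (columns). Colour is the group mean of log2(signal + 16), n = 3 arrays, minus the gene's mean over 36 arrays; an asterisk marks the 10 genes below the filter. Most photosynthesis rows are blue at 2 days, rpoA, rpl36 and rpl16 are red there, and rpl16 is at its highest in C.KCl at 2 hours.

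Both classes had their lowest median signals at 2 days, and between 8 hours and 2 days the median of the photosynthesis genes fell by more than that of the ribosome and polymerase genes. As the median of a class in each array, the 43 photosynthesis genes stood at 9.18 ± 0.40 at 2 hours, 9.03 ± 0.40 at 8 hours and 8.10 ± 0.18 at 2 days on the log2(signal + 16) scale (SD, n = 12 each). The 19 ribosome and polymerase genes stood at 10.57 ± 0.25, 10.21 ± 0.24 and 9.80 ± 0.11. Between 8 hours and 2 days the photosynthesis median changed by -1.07 in C.NO3, -0.83 in Sp.NO3, -1.03 in C.KCl and -0.77 in Sp.KCl, and the ribosome and polymerase median by -0.50, -0.30, -0.44 and -0.40 in the same order. The photosynthesis difference was thus the larger one in all 4 treatments. Between 2 and 8 hours the photosynthesis median changed by 0.17, -0.12, -0.33 and -0.36 and the ribosome and polymerase median by -0.16, -0.34, -0.53 and -0.41. These class medians are descriptions with no test. Within an array, the photosynthesis minus the ribosome and polymerase median ranged from -1.94 to -0.60 at 2 hours, -1.95 to -0.88 at 8 hours and -1.97 to -1.44 at 2 days, so the times overlapped. At 2 days the photosynthesis median of all 12 arrays, at most 8.37, lay below 11 of the 12 arrays at 8 hours. The exception was replicate 1 of Sp.KCl at 8 hours, with 7.86, which also had the highest 3′ to 5′ ratio of its time (2.00). Without that array the photosynthesis difference between 2 days and 8 hours was -1.04 and that of the ribosome and polymerase genes -0.44. In Sp.KCl alone the photosynthesis median then changed by 0.08 between 2 and 8 hours and by -1.22 between 8 hours and 2 days, and the ribosome and polymerase median by -0.26 and -0.54. The pooled SD within groups was 0.359 for the photosynthesis median and 0.215 for the other. With only genes above the 50th percentile of all probe sets in each class, the ribosome and polymerase difference was 0.01 in place of -0.41.

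**Figure D2:**
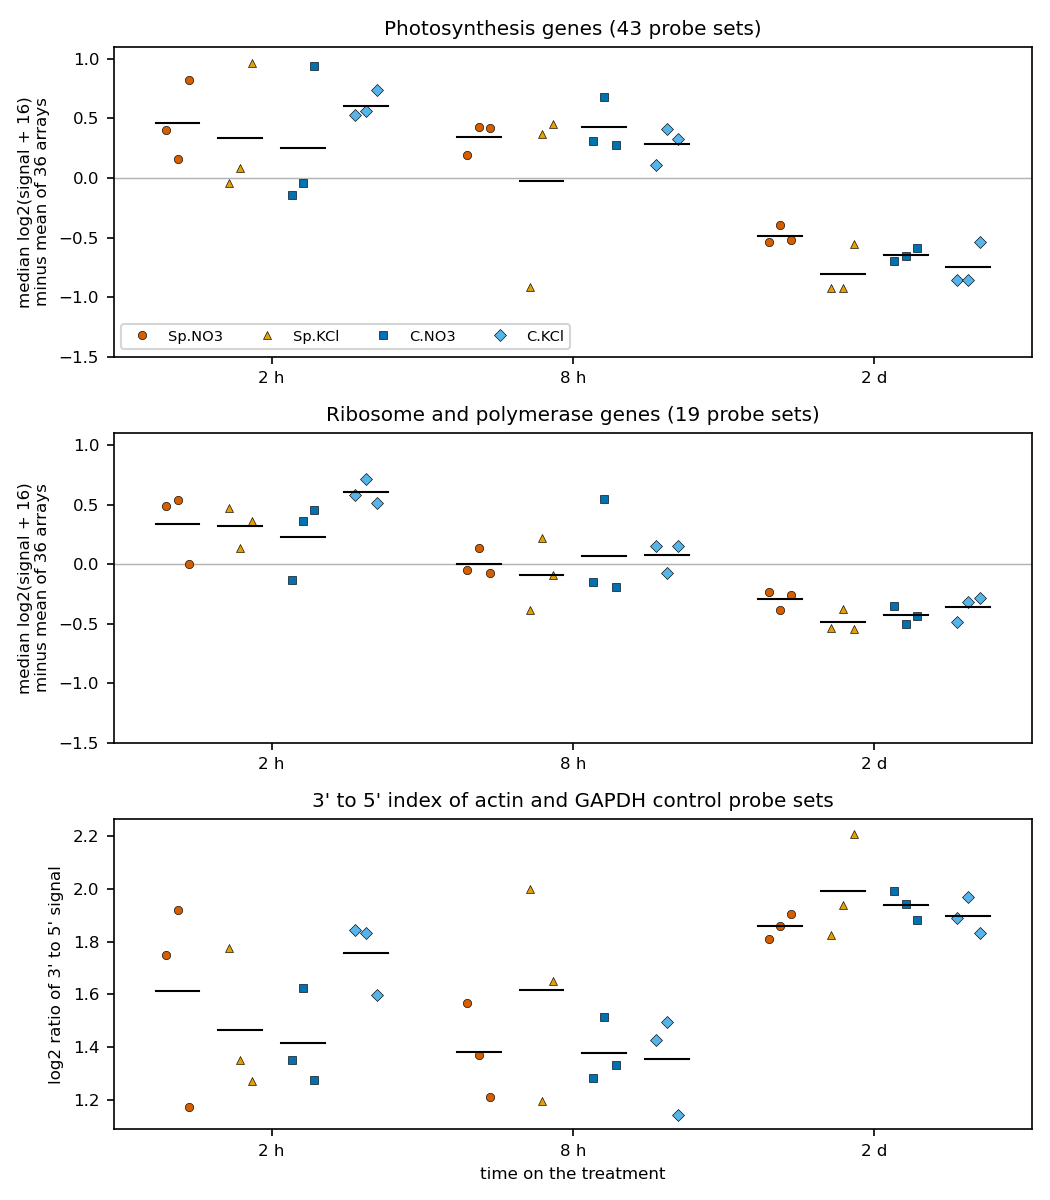
Median log2(signal + 16) of the photosynthesis genes (top) and of the ribosome and polymerase genes (middle), each minus its mean over 36 arrays, and the log2 ratio of 3′ to 5′ control signals (bottom), by time. Points are arrays, 3 per group, and bars are group means. Both classes are lowest at 2 days, photosynthesis by more, and the 3′ to 5′ ratio is highest there, at 1.92 ± 0.11 (SD, n = 12).

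Between 8 hours and 2 days, averaged over the 4 treatments, 45 of the 58 tested plastid genes fell and 4 rose by limma with Benjamini-Hochberg adjustment over all probe sets. Of all probe sets tested, 29.9% fell and 32.7% rose in this comparison. Without replicate 1 of Sp.KCl at 8 hours the counts were again 45 and 4. The median difference of the 58 was -0.62, against 0.018 over all probe sets tested. Photosynthesis genes fell in 30 of 35 cases and rose in none, with a median of -0.83. Ribosome and polymerase genes fell in 9 of 17 cases and rose in 4, with a median of -0.27. All 6 others fell. The mean was lower at 2 days in each of the 4 treatments for 43 genes (31.4% of all probe sets), and the 12 arrays at 2 days all lay below the 12 at 8 hours for 12 genes (7.59% of all probe sets).

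The 3′ to 5′ ratio was also highest at 2 days. It was at least 1.81 in all 12 arrays there, and at 8 hours only replicate 1 of Sp.KCl (2.00) reached that range. Ratio and time thus nearly coincided in this interval. At 2 hours replicates 1 and 2 of C.KCl and replicate 2 of Sp.NO3 also stood at 1.83 to 1.92. A fit with both takes its adjustment for the ratio from differences between arrays within groups. Whether that adjustment holds between the times was not tested. With that ratio in the fit as a covariate, 39 genes fell and 3 rose, and no share of all probe sets is given for that fit. The calls of psaA, psaB, psbB, psbH, rbcL, ycf3, rpl14 and rpl20 were then lost, and psaA turned to 0.06 (adjusted p = 0.900). All 5 tested photosystem I genes fell between 8 hours and 2 days. The message of psaC, which holds iron-sulphur clusters of photosystem I, fell by 1.37 ± 0.18 (SE, adjusted p = 9.41e-08). The small subunits psaJ and psaI fell by 1.19 ± 0.14 and 0.70 ± 0.11. The reaction centre genes psaA and psaB fell by 0.70 ± 0.23 and 0.36 ± 0.11. In a check without the C.KCl arrays, chosen after the values were seen, neither passed (limma, adjusted p = 0.127 and 0.107). In Sp.KCl the mean of psaA was higher at 2 days, by 0.26, where the other treatments gave -0.62 to -1.39, and without replicate 1 at 8 hours, which stood at 47.7, the difference there was -0.58.

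Photosystem II had the most members, 14 tested, of which 11 fell. The largest difference was that of psbT, a small subunit, with 31.0, 43.7 and 71.5 as the lowest, median and highest of 12 arrays at 2 days, against 47.8, 177 and 342 at 8 hours. The signal fell by 1.63 ± 0.20 (adjusted p = 2.23e-08). The times overlapped in 1 array at 8 hours, replicate 1 of Sp.KCl. The antenna protein gene psbB and psbL, a small subunit near the quinone site, fell by 1.26 ± 0.23 and 1.26 ± 0.13. For psbI, a small subunit of the reaction centre, the arrays gave 756, 938 and 1213 at 2 days, against 1679, 2016 and 2356 at 8 hours. The times did not overlap, and the signal fell by 1.06 ± 0.06 (adjusted p = 8.96e-16). The reaction centre gene psbA fell by 0.60 ± 0.16 (adjusted p = 0.00176). The 3 genes that did not pass stand side by side on the chromosome: psbD (the D2 protein, -0.08 ± 0.14), psbC (an antenna protein, 0.06 ± 0.10) and psbZ (0.06 ± 0.06).

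In the cytochrome b6f complex 4 of 5 tested genes fell. The small subunit gene petG gave 27.5, 67.7 and 109 at 2 days, against 50.3, 276 and 382 at 8 hours, lower by 1.75 ± 0.23 (adjusted p = 9.495e-08). Only replicate 1 of Sp.KCl at 8 hours reached down into the range of the later arrays. Its neighbour petL fell by 0.92 ± 0.12, petA (cytochrome f) by 0.82 ± 0.07 and petB by 0.49 ± 0.09. The remaining small subunit, petN, differed by -0.17 ± 0.13 (adjusted p = 0.241).

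The NDH complex carries electrons around photosystem I, and 4 of its 5 tested genes fell. The subunit gene ndhD gave 332, 498 and 681 at 2 days, against 955, 1208 and 1653 at 8 hours, and fell by 1.39 ± 0.12 (adjusted p = 1.50e-11). No array at 2 days reached the lowest at 8 hours. Its cluster mates ndhA, ndhI and ndhE fell by 1.35 ± 0.13, 0.66 ± 0.10 and 0.54 ± 0.12. The dim members of that cluster, ndhH and ndhG, gave -1.29 and -0.11 when no filter was set. In another cluster ndhC stood at 1810, 2088 and 2230 at 2 days, against 1762, 2004 and 2432 at 8 hours, and differed by 0.001 ± 0.06 (adjusted p = 0.994).

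All 5 tested ATP synthase genes fell, by very unequal amounts. The gene of the membrane stalk, atpF, gave 91.4, 142 and 204 at 2 days, against 216, 792 and 1017 at 8 hours. It fell by 2.21 ± 0.19 (4.62-fold, adjusted p = 3.18e-11), the largest difference among the 58 genes, and its times did not overlap. From the same cluster, atpH (the ring subunit) fell by 1.45 ± 0.17, atpA (the alpha subunit) by 1.15 ± 0.12, and rps2, a ribosomal protein gene that stands upstream of them, by 1.13 ± 0.11. The separate pair atpB and atpE, for the beta and epsilon subunits, fell by 0.18 ± 0.07 (adjusted p = 0.0196) and 0.22 ± 0.08 (adjusted p = 0.0144). By treatment atpB changed by -0.167 in C.NO3, -0.119 in Sp.NO3, -0.436 in C.KCl and -0.007 in Sp.KCl. In a check without the C.KCl arrays, chosen after the values were seen, neither passed (atpB -0.098, limma adjusted p = 0.291, and atpE -0.199, adjusted p = 0.0589). The large Rubisco subunit gene rbcL fell by 0.38 ± 0.11 (adjusted p = 0.00350).

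**Figure D3:**
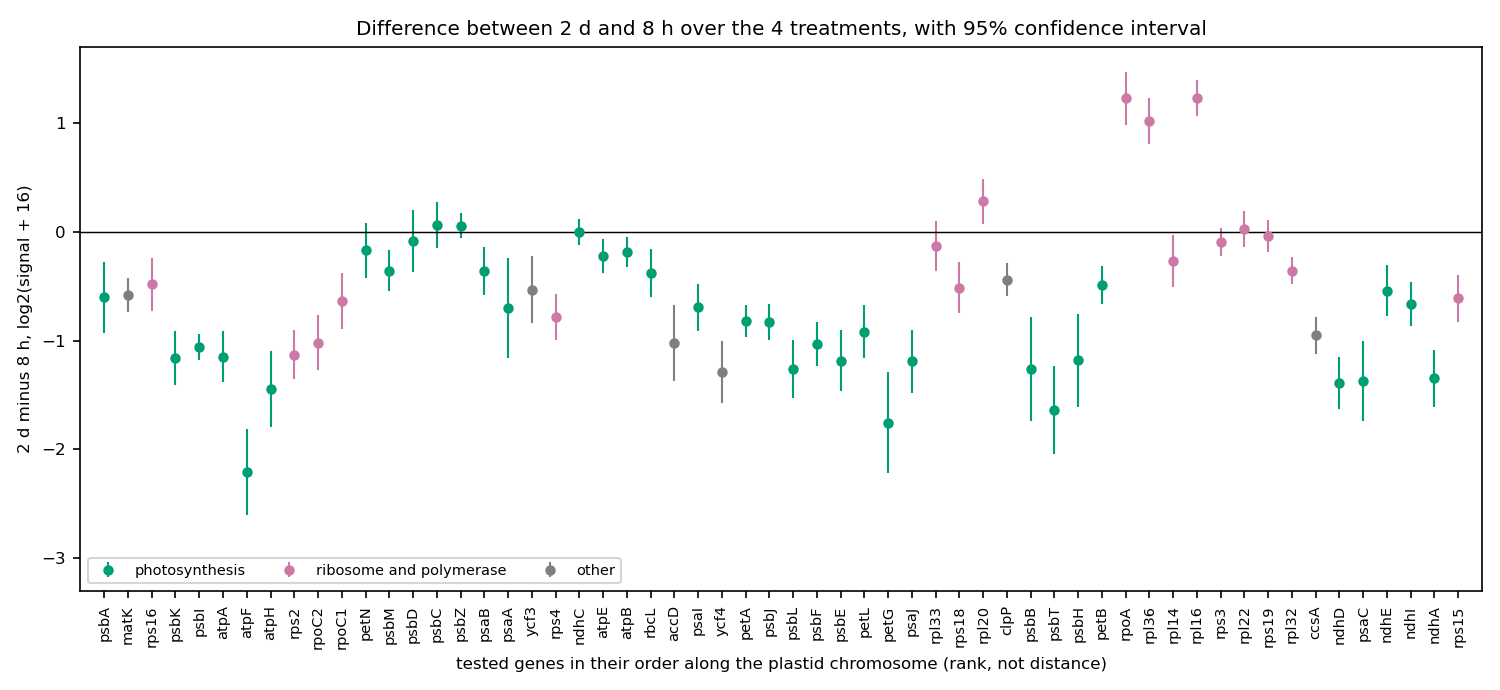
Difference between 2 days and 8 hours on the log2(signal + 16) scale for the 58 tested genes, in their rank order along the plastid chromosome. Points are estimates over the 4 treatments (12 arrays per time), bars are 95% confidence intervals, and colours mark the class. Values run from -2.21 (atpF) to 1.23 (rpl16). The averages of psbD, psbC and psbZ sit together near 0, though their single treatments differ in sign.

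Among the polymerase subunits the plastid genes went in opposite directions between 8 hours and 2 days. The alpha subunit gene rpoA gave 4227, 4802 and 6658 at 2 days, against 1496, 2175 and 2641 at 8 hours. It rose by 1.23 ± 0.12 (adjusted p = 2.96e-10), with all 12 later arrays above all 12 earlier ones. The rise was 1.28 in C.NO3, 1.12 in Sp.NO3, 1.33 in C.KCl and 1.18 in Sp.KCl. Against it, the beta″ subunit gene rpoC2 fell by 1.02 ± 0.13, with 99.8, 233 and 293 at 2 days against 362, 473 and 730 at 8 hours, and the beta′ subunit gene rpoC1 by 0.63 ± 0.13. The first gene of their cluster, rpoB, was dim and gave -0.06 without the filter. The gene accD, for a subunit of acetyl-CoA carboxylase in fatty acid synthesis and, like rpoC1 and rpoC2, counted in textbooks among the targets of the nuclear-encoded polymerase, fell by 1.02 ± 0.17 (adjusted p = 6.04e-06).

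The ribosomal protein genes split as well. Of 7 tested genes of the small subunit, 5 fell and none rose, led by rps2 and rps4 (-0.78 ± 0.11). Of 7 of the large subunit, 2 fell (rpl32, -0.36 ± 0.06, and rpl14) and 3 rose. The genes that rose were rpl16, rpl36 and rpl20 (0.28 ± 0.10). The message of rpl16 gave 1618, 2362 and 3835 at 2 days, against 801, 1025 and 1353 at 8 hours, and rose by 1.23 ± 0.08 (adjusted p = 3.88e-14). That of rpl36 gave 1306, 2041 and 2462 at 2 days, against 693, 1004 and 1299 at 8 hours, and rose by 1.02 ± 0.10 (adjusted p = 7.025e-10). For both, as for rpoA, no array at 2 days overlapped with those at 8 hours, which held for 6.65% of all probe sets in the rising direction. The 3′ to 5′ covariate left these 3 genes among the calls, in a fit whose adjustment comes from arrays within groups.

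Genes that rose stood in the same cluster as genes that did not. In the rpl23 cluster, a group of genes for ribosomal proteins and rpoA that are transcribed together, 7 genes were tested. In the order of transcription the differences were -0.04 ± 0.07 (rps19), 0.03 ± 0.08 (rpl22), -0.09 ± 0.06 (rps3), 1.23 ± 0.08 (rpl16), -0.27 ± 0.12 (rpl14, adjusted p = 0.0492), 1.02 ± 0.10 (rpl36) and 1.23 ± 0.12 (rpoA). The first 3 did not pass the threshold. The call of rpl14 was lost in 17 of the 24 fits that left out one array.

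**Figure D4:**
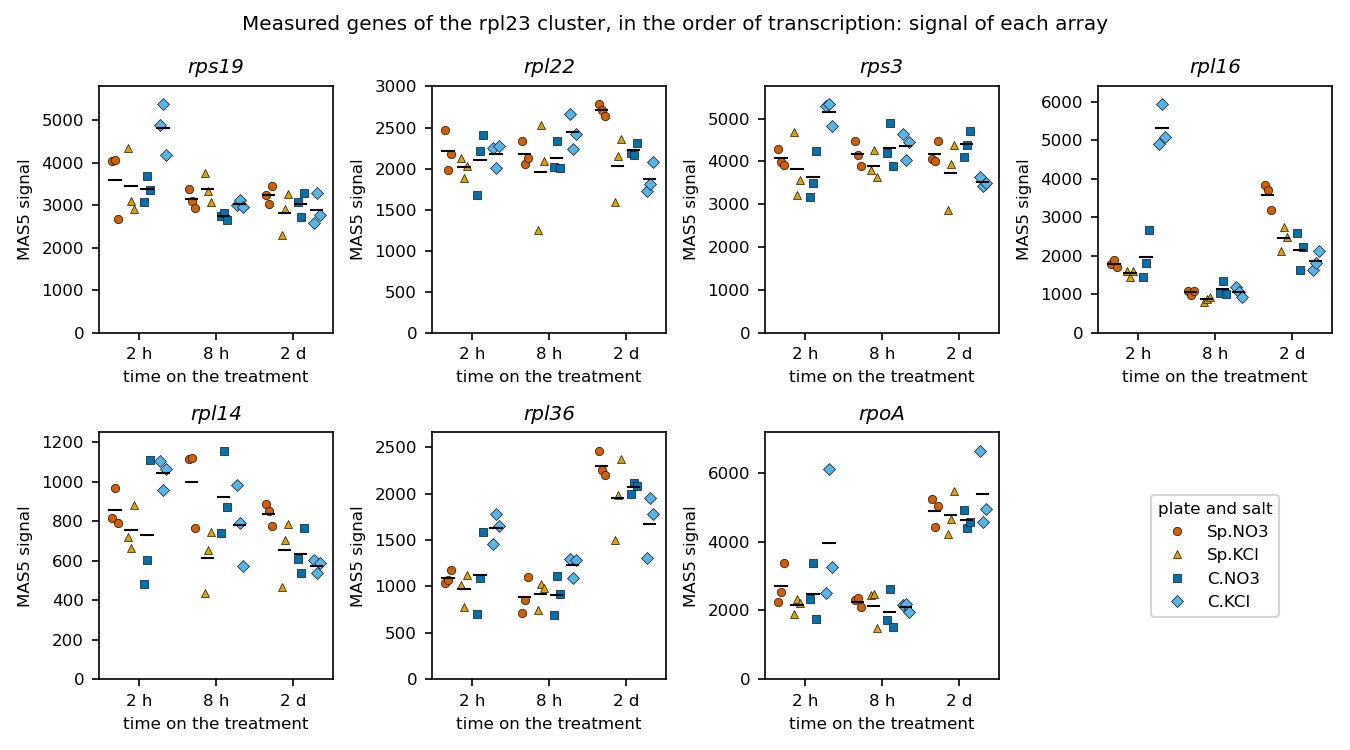
MAS5 signal of each array for the 7 tested genes of the rpl23 cluster, in the order of transcription, at the 3 times (2 h, 8 h, 2 d). Points are arrays, 3 per group, and bars are group means. At 2 days rpl16, rpl36 and rpoA lie above all their 8-hour arrays while rps19, rpl22 and rps3 overlap with theirs, and rpl16 in C.KCl at 2 hours stands at 4909 to 5936.

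The 6 remaining genes fell by 0.44 to 1.29 between 8 hours and 2 days. Besides accD they were ycf4 (an assembly factor of photosystem I, -1.29 ± 0.14), ccsA (haem attachment to c-type cytochromes, -0.95 ± 0.08), matK (-0.58 ± 0.08), ycf3 (another photosystem I assembly factor, -0.53 ± 0.15) and clpP (a protease subunit, -0.44 ± 0.08).

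Between 2 and 8 hours 17 of the 58 genes fell and 2 rose (background 22.4% and 22.7% of probe sets). The share of genes that fell, 29.3%, was closer to that of all probe sets than in the later interval, and the median difference was -0.12. By class, 10 of 35 photosynthesis genes and 7 of 17 ribosome and polymerase genes fell. The largest fall was that of rpl16, by 1.17 ± 0.08 (adjusted p = 4.17e-13), with 801, 1025 and 1353 at 8 hours against 1434, 1805 and 5936 at 2 hours. All 12 later arrays lay below all 12 earlier ones, as also for psbI, which fell by 0.45 ± 0.06 (2.24% of all probe sets). Other photosynthesis genes that fell were psaJ (-0.77 ± 0.14), psbA (-0.74 ± 0.16), petL (-0.73 ± 0.12), psaB (-0.45 ± 0.11), psbZ (-0.44 ± 0.06) and psbK (-0.38 ± 0.12). In C.KCl psaJ changed by only -0.08. Among the polymerase genes rpoC1 and rpoA fell by 0.37 ± 0.13 and 0.36 ± 0.12, and rpoC2 differed by 0.03 ± 0.13. Without the C.KCl arrays, a check chosen after the values were seen, psaB, psbK, rpoC1 and rpoA did not pass (limma, adjusted p = 0.115, 0.0799, 0.106 and 0.242). By treatment rpoA changed by -0.335 in C.NO3, -0.252 in Sp.NO3, -0.808 in C.KCl and -0.035 in Sp.KCl.

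The 2 genes that rose were petG and rbcL. The signal of petG was 50.3, 276 and 382 at 8 hours, against 79.5, 133 and 253 at 2 hours, a rise by 0.86 ± 0.23 (adjusted p = 0.002875) with overlapping times. That of rbcL was 249, 395 and 570 at 8 hours, against 153, 258 and 344 at 2 hours, a rise by 0.59 ± 0.11 (adjusted p = 4.92e-05), again with overlap. Both means rose in all 4 treatments, by 0.43 to 1.14 for petG and 0.44 to 0.88 for rbcL. The neighbours petL, petG and psaJ, which lie in a row on the chromosome, thus gave -0.73, 0.86 and -0.77 in this interval and -0.92, -1.75 and -1.19 in the later one.

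**Figure D5:**
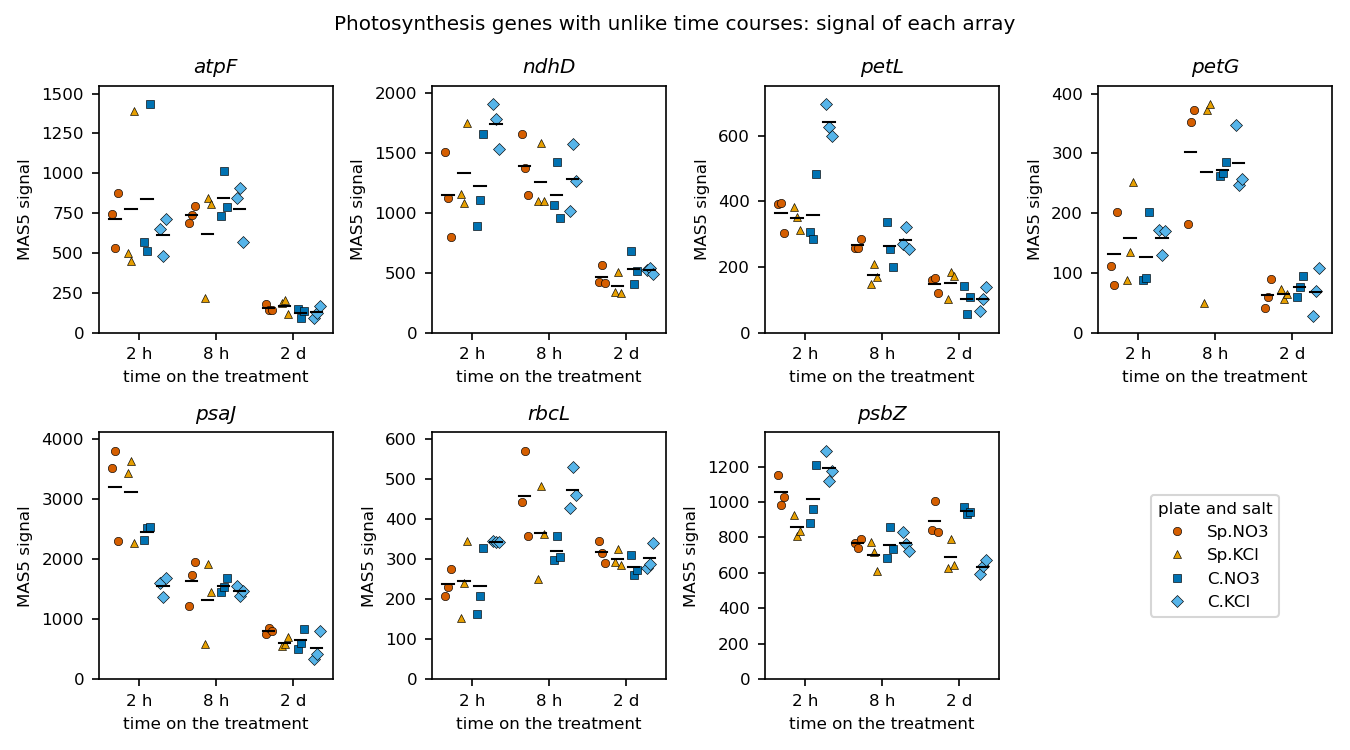
MAS5 signal of each array for atpF, ndhD, petL, petG, psaJ, rbcL and psbZ at the 3 times (2 h, 8 h, 2 d). Points are arrays, 3 per group, and bars are group means. The signals of atpF and ndhD are low at 2 days only, petG and rbcL are higher at 8 hours than at 2 hours, and psbZ at 2 days is higher in the nitrate groups. Averaged over the treatments, petL and psaJ step down at both intervals, but psaJ in C.KCl changed by only -0.08 between 2 and 8 hours.

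Taken by treatment, the early interval differed in how many genes passed. In C.KCl 13 genes fell between 2 and 8 hours (8.02% of probe sets fell): rpl16, petL, psaB, psbA, rpoA, psbI, rps15, rps19, psbZ, psbM, psbJ, matK and ndhC, with differences of -0.36 to -2.31. With the chloride groups exchanged, C.KCl takes the arrays titled Sp.KCl, so its count becomes the 4 of Sp.KCl given next. Those 4 include rpl16, petL and psbI, and rps15 and ndhC turn to 0.075 and 0.086. In Sp.KCl 4 fell (6.22%), namely psaJ (-1.36 ± 0.29, and -0.08 with the groups exchanged, where it did not pass), petL, rpl16 and psbI, and the fit with the repeat number as a block added a fall of ndhI and a rise of rbcL (adjusted p = 0.0281 and 0.0494). In C.NO3 rpl16 and psbZ fell (5.77%), and the fit with the repeat number as a block added a rise of petG (adjusted p = 0.0401). Neither rpl16 nor psbZ passed in C.NO3 with only the arrays compared (adjusted p = 0.0544 and 0.138). In Sp.NO3 psaJ, rpl16 and psbZ fell (7.89%) and rbcL rose (8.64%). The difference of rpl16 was -2.31 ± 0.16 in C.KCl, -0.83 ± 0.16 in Sp.KCl, -0.76 ± 0.16 in C.NO3 and -0.77 ± 0.16 in Sp.NO3. Without the C.KCl arrays, a check added after the values were seen, 8 genes fell and 2 rose in this interval, and 40 fell and 5 rose in the later one. No share of all probe sets is given for this check. Leaving out 1 array at a time gave 7 to 10 calls in C.KCl, with 7 without replicate 2 at 2 hours and 7 without replicate 3 at 8 hours. It gave 9 calls in Sp.NO3 without replicate 3 at 2 hours, 8 in Sp.KCl without replicate 2 at 8 hours, and 1 in C.NO3 without replicate 1 or 3 at 8 hours.

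The first of the salt comparisons asks what nitrate, in place of chloride, did to plastid messages where both compartments held the same salt. At 2 hours 5 of the 58 genes were lower in C.NO3 than in C.KCl (1.03% of probe sets were lower). Arrays of rpl16 gave 1436, 1818 and 2674 in C.NO3, against 4909, 5936 and 5088 in C.KCl, a difference of -1.46 ± 0.16 (adjusted p = 9.87e-07) with no overlap. The other 4 were psaI (-0.87 ± 0.22, adjusted p = 0.0320), psaB (-0.81 ± 0.22, adjusted p = 0.0460), rps3 (-0.51 ± 0.13, adjusted p = 0.0331) and psbI (-0.43 ± 0.12, adjusted p = 0.0496). For psaB the arrays gave 1467, 2209 and 3188 in C.NO3, against 3871, 3876 and 3707 in C.KCl. For rps3 they gave 3179, 3499 and 4233 in C.NO3, against 5304, 5336 and 4833 in C.KCl. All 5 genes had every C.NO3 array below every C.KCl array, as 13 of the 58 genes did, against 10.1% of all probe sets. The median difference was -0.29 for photosynthesis genes and -0.51 for ribosome and polymerase genes, against -0.019 for all probe sets.

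These 4 smaller calls were close to the threshold, and each was lost when single arrays were left out. Only rpl16 passed without replicate 1 or 2 of C.NO3 or without replicate 1 or 2 of C.KCl, 3 genes passed without replicate 3 of C.KCl, and 11 without replicate 3 of C.NO3. With the repeat number as a block 11 genes were lower, the 5 above and petL, rpoA, rpl36, rbcL, rps19 and psbJ, with blocked adjusted p-values of 0.01205 to 0.0437 for the additions. The share of all probe sets in the blocked fit is not given, and the 1.03% above belongs to the fit without the block. The 3′ to 5′ ratio averaged 1.42 ± 0.18 in C.NO3 and 1.76 ± 0.14 in C.KCl at 2 hours (SD, n = 3 each), and with it as a covariate the calls of psaI, psaB and rps3 were lost (adjusted p = 0.0661, 0.0554 and 0.0745). With the groups C.KCl and Sp.KCl exchanged, as the listed treatments have them, none of the 5 passed, and rpl16 and psaB turned to 0.31 and 0.11.

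The chloride side of split plates was set against uniform chloride plates in the next comparison, which asks whether roots on chloride differ when the rest of the root system has nitrate. At 2 hours rpl16 was the 1 gene that passed, lower in Sp.KCl (0.126% of probe sets were lower). It gave 1605, 1434 and 1592 in Sp.KCl, against 4909, 5936 and 5088 in C.KCl, a difference of -1.77 ± 0.16 (3.41-fold lower, adjusted p = 6.30e-08). The groups did not overlap. With the chloride groups exchanged the sign turns, to 1.77. With the repeat number as a block 10 genes were lower, rpl16, psaB, rpoA, rpl36, psbJ, rps19, ndhC, psbZ, rps3 and psbI. No share of all probe sets is given for that fit. Only psaJ was higher in that fit, by 0.97 ± 0.29 without the block (adjusted p = 0.1385, blocked adjusted p = 0.0261), with 3438, 3643 and 2262 in Sp.KCl against 1608, 1372 and 1688 in C.KCl. Every Sp.KCl array lay below every C.KCl array in 17 genes (9.19% of all probe sets). Leaving out replicate 1 or 3 of Sp.KCl gave 4 and 2 calls. Both comparisons use the same 3 C.KCl arrays, so the values that rpl16 has in them are not independent.

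The nitrate effect on rpl16 at 2 hours differed between plates. On split plates rpl16 gave 1791, 1876 and 1700 in Sp.NO3, against 1605, 1434 and 1592 in Sp.KCl, a difference of 0.21 ± 0.16 (adjusted p = 1.00). The effect on uniform plates minus that on split plates was -1.67 ± 0.23 (adjusted p = 0.000541), the 1 plastid gene of 3 probe sets in all that passed this test (0.0126% of probe sets were lower). With the chloride groups exchanged it was 1.87, and in a fit of only these 12 arrays its adjusted p was 0.198. For psaI, psaB, rps3 and psbI the same term was -0.85 ± 0.30, -0.90 ± 0.31, -0.62 ± 0.18 and -0.48 ± 0.17, with adjusted p-values of 0.361 to 0.461. At 8 hours rpl16 stood at 861 ± 57.2 in Sp.KCl, at 1134 ± 190 in C.NO3 and at 1057 ± 124 in C.KCl (SD, n = 3 each). At 2 days it stood at 3574 ± 342 in Sp.NO3 and 2451 ± 310 in Sp.KCl, and at 2149 ± 494 in C.NO3 and 1854 ± 244 in C.KCl.

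Averaged over the times, rpl16 (-0.39 ± 0.09, adjusted p = 0.0134) and psaI (-0.43 ± 0.12, adjusted p = 0.0487) were lower in C.NO3 than in C.KCl (1.80% of probe sets were lower). For rpl16 the difference at 2 hours, -1.46, set the sign of this average, since it was 0.095 at 8 hours and 0.19 at 2 days. With the chloride groups exchanged the averages were 0.16 for rpl16 and -0.15 for psaI, and neither passed. With only the arrays compared neither of them passed either (adjusted p = 0.0575 for rpl16 and 0.0616 for psaI). The call of psaI was also lost with the 3′ to 5′ covariate (adjusted p = 0.0659), after quantile normalization (adjusted p = 0.0567), with no filter (adjusted p = 0.0700) and in 12 of the 18 fits that left out one array. With the repeat number as a block rpoC1 and rbcL were lower too. On the chloride sides rpl16 was lower in Sp.KCl than in C.KCl over the times, by 0.55 ± 0.09 (adjusted p = 0.0116, 0.107% of probe sets lower). Its differences were -1.77 at 2 hours, -0.29 at 8 hours and 0.40 at 2 days (adjusted p = 0.318 at 2 days), and the average turns to 0.55 with the groups exchanged.

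At 2 days psbZ was the 1 gene that passed for nitrate on uniform plates. It gave 972, 930 and 944 in C.NO3, against 591, 639 and 673 in C.KCl, higher by 0.57 ± 0.12 (1.48-fold, adjusted p = 0.00291, 1.31% of probe sets higher). The groups did not overlap. With the chloride groups exchanged the difference was 0.46 (adjusted p = 0.0708). The summed signal of the 7 nuclear genes of photosynthesis and green tissue also did not overlap at 2 days, at 1829 to 2058 in C.NO3, against 870 to 1158 in C.KCl. On split plates that sum was 1497 to 1967 in Sp.NO3, against 1207 to 1479.5 in Sp.KCl, and its part in the psbZ difference was not tested. With the repeat number as a block psbC (0.68 ± 0.20, blocked adjusted p = 0.0121) and psbI (0.35 ± 0.12, blocked adjusted p = 0.0423) were higher as well. On split plates, averaged over the times, psbZ was higher in Sp.NO3 than in Sp.KCl by 0.27 ± 0.07 (adjusted p = 0.0369, 0.848% of probe sets higher). There the signal averaged 905 ± 142 in Sp.NO3 and 749 ± 107 in Sp.KCl (SD, n = 9 each), and the call was lost in 10 of the 18 fits that left out one array. With the chloride groups exchanged the difference was 0.098 (adjusted p = 0.526).

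In the remaining comparisons no plastid gene passed by limma. These were nitrate on uniform plates at 8 hours, with 2 genes at an unadjusted p under 0.05, and nitrate on split plates at the 3 times (2 h, 8 h, 2 d), with 3, 10 and 6 such genes. The nitrate sides of split and of uniform plates gave 2 over the times and 0, 1 and 2 at the single times, and the chloride sides 7 at 8 hours and 6 at 2 days. Tukey's test after analysis of variance, run for the nitrate side over the times, also called 0. Of all probe sets, 0.389% were called at an adjusted p under 0.05 for nitrate on uniform plates at 8 hours, 0.144%, 0.245% and 0.798% on split plates, 0.00628%, 0%, 0% and 0.00628% for the nitrate sides, and 0% and 0.930% for the chloride sides, in the same order. These shares stand beside the absence of plastid calls only. They are no background for the counts at an unadjusted p under 0.05, for which no share of all probe sets is given.

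Nuclear and mitochondrial genes were set beside the plastid genes. Of 23 probe sets of mitochondrial genes 11 were tested, and between 8 hours and 2 days 8 fell and none rose, with a median of -0.41. The largest fall among them was that of nad5, a complex I subunit, by 0.91 ± 0.10. Between 2 and 8 hours 5 mitochondrial probe sets fell and 1 rose. Of 32 listed nuclear genes for plastid ribosomal proteins 8 had a probe set of their own. In the later interval 4 of them fell, led by PRPL29 (-0.50 ± 0.07), PRPS6 (-0.42 ± 0.09) and PRPL19B (-0.41 ± 0.10), and none rose, and in the earlier one 2 fell and 1 rose. Of the 7 nuclear photosynthesis genes, LHCB4.1, an antenna protein of photosystem II, fell by 0.86 ± 0.14 in the later interval, PSBY rose by 0.34 ± 0.10 and 5 did not pass; in the earlier interval PSAN and PSBY fell. The summed signal of these 7 was 870 to 2058 in the 12 arrays at 2 days and 1102 to 2395 at 8 hours, and its part in the plastid differences was not tested. Of 3 phage-type polymerases only RPOTmp, which acts in plastids and mitochondria, had its own probe set, and it rose by 0.91 ± 0.20 between 2 and 8 hours (adjusted p = 0.000385) and differed by 0.07 ± 0.20 in the later interval. The root genes EXPA7 and EXPA18 fell by 0.50 ± 0.06 and 0.59 ± 0.08 in the earlier interval and rose by 0.79 ± 0.06 and 0.89 ± 0.08 in the later one. Sigma factors, proteins associated with the plastid polymerase and plastid RNA turnover enzymes are not analysed here, since no probe set is listed for them alone. None of the genes of these lists passed for nitrate on uniform plates at 2 hours.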

How the data were processed

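RNA from roots was hybridised to 36 Affymetrix ATH1 arrays, 3 in each of 12 groups. The deposited values are intensity signals that the authors made with MAS5, per the submitters' processing notes, and the mean of each array's values, trimmed by 2% at either end, is 500. Brightness over background on 36 arrays limits precision. Values were taken as log2(signal + 16), and 64 control probe sets were left out. Of 22746 probe sets, the 15922 with a mean log2 value at or above the 30th percentile (signal 68.87) were tested with limma 3.58.1 in R 4.3.3, with 12 group means, 24 residual degrees of freedom, a trended prior and Benjamini-Hochberg adjustment within each comparison at 0.05. The fit was tried on simulated data with independent noise, for the comparison of 2 days with 8 hours over the treatments only. That trial held no shared deviation of arrays with the same repeat number and does not cover the comparisons of 3 with 3 arrays. Arrays with the same repeat number deviated together (every correlation over 0.1) for nitrate on uniform plates, split plates at 2 and 8 hours, chloride sides at 2 and 8 hours, nitrate sides and the interaction at 2 hours, C.NO3 and Sp.KCl between 2 and 8 hours, and C.KCl between 8 hours and 2 days. The blocked fit stands beside those results where it moved a count by over 1.5 times or changed a call. All shares of all probe sets are those of the main fit. Genes were named from the platform annotation and RefSeq TAIR10.1, and no sequences were used here. Named genes are those past the threshold (up to 10 a comparison), their cluster mates, the brightest and most variable of each family, and rpl16, rpo, rbcL, psbA and accD. The genes, lists and the naming rule were chosen with earlier results of these data known. Alternatives were other pseudocounts, filters and normalization, only the arrays compared, exchanged chloride groups, a repeat block, the 3′ to 5′ covariate, analysis of variance with Tukey's test, and each array left out.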

Additional observations from a re-analysis of the deposited data

Results flagged for a closer look

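The effect of nitrate on rpl16 at 2 hours differed between plate types: on uniform plates minus split plates it was -1.673 ± 0.23 on the log2(signal + 16) scale (SE, limma interaction term, adjusted p = 0.000541). The 3 C.KCl arrays, at 4909, 5936 and 5088, were the high ones, and with the chloride groups exchanged the term was 1.87.

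The change of psbJ, a small photosystem II subunit, between 2 and 8 hours differed between the uniform groups by 0.619 (C.NO3 minus C.KCl), with all 3 arrays at 8 hours above the 2-hour mean in C.NO3 and all 3 below it in C.KCl. It gave 1639, 1837 and 1604 in C.NO3 at 8 hours, against 1389, 1281 and 1974 in C.NO3 at 2 hours. In C.KCl it gave 1584, 1531 and 1462 at 8 hours, against 1794, 2388 and 2207 at 2 hours. In C.NO3 the times overlapped, replicate 3 was lower at 8 hours, and psbJ was not called. In C.KCl the change was -0.468, which was called, and -0.166 with the chloride groups exchanged. The call was lost with no filter (limma, adjusted p = 0.0587). It was also lost without replicate 2 or 3 at 2 hours, or without any 1 of the 3 arrays at 8 hours. The difference was not tested.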

How the results depend on the processing

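Of 103 calls of plastid genes over the 23 comparisons, 103 held with a pseudocount of 64 and with the repeat block, 100 with a pseudocount of 1, 98 after quantile normalization, 93 with no filter, 85 with the 3′ to 5′ covariate, 85 with only the arrays compared and 80 with the chloride groups exchanged. All 92 that could be tested held with a filter at the 50th percentile. The exchange could not alter calls averaged over the 4 treatments or calls within C.NO3 or Sp.NO3, so most of the 80 were fixed in advance. Of the calls that rest on a single chloride group, 15 weakened past the threshold and 8 turned in direction with the exchange. Counts of called genes moved by over 1.5 times as follows. Nitrate on uniform plates over the times (2 genes) gave 1 with a pseudocount of 1, quantile normalization, no filter, only the arrays compared or exchanged groups, and 4 with the repeat block. The 1 gene with only the arrays compared or with exchanged groups was neither rpl16 nor psaI, which were both lost there. At 2 hours (5 genes) nitrate on uniform plates gave 3 with no filter, 1 with only the arrays compared, 0 exchanged and 11 blocked. At 2 days (1 gene) it gave 2 with only the arrays compared or the covariate, 0 exchanged and 3 blocked. On split plates over the times (1 gene) the block and Tukey's test each gave 2, and 0 genes became 1 at 2 hours exchanged, 1 at 2 days with only the arrays compared and 3 at 2 days exchanged. Chloride sides at 2 hours (1 gene) gave 2 after quantile normalization, with the 50th percentile filter or the covariate and 11 blocked, and at 2 days the block gave 1. The interaction at 2 hours gave 0 with only the arrays compared. Between 2 and 8 hours C.KCl (13) gave 4 exchanged, Sp.KCl (4) gave 13 exchanged and 2 with only the arrays compared, Sp.NO3 (4) gave 7 blocked, and all treatments (19) gave 10 without C.KCl, an alternative chosen after seeing the data. The block is given only here where repeat numbers did not pair the arrays. Directions turned with exchanged groups for rpl16 (0.16 over the times and 0.31 at 2 hours for nitrate on uniform plates, 0.55 and 1.77 for the chloride sides, 1.87 for the interaction), psaB (0.11), rps15 (0.075) and ndhC (0.086), and with the covariate for psaA (0.055). The ribosome and polymerase median between 8 hours and 2 days was 0.01 with genes above the 50th percentile, and its C.NO3 minus C.KCl difference at 2 hours -0.093 exchanged. Leaving out one array gave 1 to 3 calls for nitrate on uniform plates over the times, 1 to 11 at 2 hours and 1 to 2 at 2 days, 0 to 1 on split plates over the times, 1 to 4 for chloride sides at 2 hours, 17 to 21 and 48 to 49 for the early and late interval, and for the early interval 1 to 3 in C.NO3, 3 to 9 in Sp.NO3, 7 to 10 in C.KCl and 3 to 8 in Sp.KCl. The causes of these shifts were not tested, beyond the fewer arrays or probe sets that some settings use.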
